A study of Mus musculus with 12 samples.

Results

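Carriers of the Eµ-myc transgene were compared with non-carriers across both caspase genotypes at once. The transgene joins Myc, which encodes a transcription factor of growth and proliferation, to an enhancer of the immunoglobulin heavy chain locus that is active in B lineage cells. All 12 libraries of the series entered, 6 from carriers and 6 from non-carriers. Each library held total RNA of sorted hematopoietic stem cells (HSC) from C57BL/6J mice. The non-carriers were wild type (group WT, libraries WT2, WT3 and WT4) or Casp1 -/- Casp11 -/- (group C, libraries C1, C2 and C3). The carriers were Eµ-myc on the wild-type background (group E, libraries E1, E2 and E3) or Eµ-myc with Casp1 -/- Casp11 -/- (group CE, libraries CE1, CE2 and CE3). Casp1 and Casp11 encode inflammatory caspases, and Casp11 is listed as Casp4. The additive model asks for the log2 change that carriers of both backgrounds share, with caspase genotype as a covariate and no interaction. Age, sex, the sort markers and any treatment are not stated in the labels, nor is it stated that each library came from a separate mouse, so p-values measure the spread between these libraries, which may be technical.

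HSC sit at the top of blood formation and are kept by transcription factors such as HLF, EVI1 (encoded by Mecom) and HOX proteins. B cell development begins when EBF1 and PAX5 switch on the B lineage program, including the surrogate light chain (VPREB and IGLL1 proteins) that pairs with the first rearranged heavy chain. Mice with the Eµ-myc transgene are a classical model of B cell lymphoma.

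Total counts were 24529611 to 34065910 per library. Levels are given as CPM, counts scaled to a common library size with TMM effective sizes, and 14227 genes had enough counts to be tested. The first principal component carried 29.8% of the variance and separated the caspase genotypes, not the carriers. The third component, with 13.6%, split the carriers (-23.78 to -6.75) from the non-carriers (3.45 to 22.68). A count was seen for more genes in C1 and C3 than in the other libraries, and WT4 stood apart on the second component. Y-linked transcripts summed to 92.4 to 122 CPM in all C libraries, CE1 and CE2, and to at most 0.261 in CE3 and the WT and E libraries. They thus followed the caspase genotype except in CE3, and group CE held libraries with and without them. Kit (358.6 to 510.2 CPM), Cd34 (852.3 to 1162) and Flt3 (305.2 to 517.7) were abundant in every library. Ly6a was at 20.9 to 33.3 CPM, Procr at 8.28 to 18.4 and Slamf1 at 3.33 to 5.07. Cd3e, Ly6g, Ms4a1 and Hbb-bs, which mark T cells, neutrophils, mature B cells and red cells, stayed at or below 0.874 CPM and were not tested. Not all markers were low. Cd48, which the marker set used here counts as low in HSC, was at 99.3 to 145 CPM. Csf1r, of the marrow macrophage list, was at 98.2 to 166 CPM. Genes of the neutrophil and monocyte granule list summed to at least 8717 CPM in every library. The share of more mature cells in the sort was not tested.

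Myc itself was not called different between carriers and non-carriers. In the order of the library numbers, as throughout, its level was 444, 437 and 388 CPM in WT2 to WT4, and 424, 451 and 430 in E1 to E3. It was 340, 324 and 321 CPM in C1 to C3, and 348, 346 and 406 in CE1 to CE3. The pooled log2 change was 0.10 (SE 0.066, 95% interval -0.04 to 0.24, adjusted p = 0.69), so the groups overlapped on the wild-type background and separated narrowly on the caspase background. The sources used here do not say whether transcripts of the transgene are counted in this row. Casp1 and Casp4 did not pass in this comparison either, at log2 changes of 0.09 (adjusted p = 0.86) and 0.23 (adjusted p = 0.63). As a check of the caspase label, Casp1 was at 29.4 to 47.5 CPM in the 6 libraries with intact caspases and 5.10 to 6.79 in the 6 knockout libraries. Casp4 was at 11.9 to 17.3 CPM in the former and 7.07 to 13.8 in the latter, with CE2 inside the intact range, so its level did not separate the labels.

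Few genes passed for the transgene effect, and it ran in 2 directions with different members. Genes of early B cell development were lower in carriers, by 1.94- to 5.34-fold among the 13 that passed. Selp, a run of neighbouring genes on chromosome 19 around Jak2, and several transcripts of HSC identity were higher in carriers. In all, 84 of 14227 genes (0.59%) passed an adjusted p of 0.05, 33 higher (0.232%) and 51 lower (0.358%). The median log2 change over all tested genes was 0.00, and 51.4% of them were above 0. The lower genes moved further: their median fold was 2.79, with 33 of 51 beyond 2-fold, against a median of 1.57 and 4 of 33 for the higher genes. Of the 84 genes, 46 had all 6 carrier libraries on one side of all 6 non-carrier libraries, 26 among the higher genes and 20 among the lower. In 69 of the 84 the carriers lay beyond the non-carriers in the same direction within each background, as did 252 of all tested genes (1.77%). The 84 genes were called from these same libraries, so both counts of separation describe them and are no separate support. The last gene inside the threshold had an adjusted p of 0.0497 and the first outside one of 0.0510.

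The number of calls depended on single libraries. It was 53 without C1, 52 without CE1, 50 without E3 and 132 without WT4. None of the 84 genes turned direction in any of 23 alternative fits. These genes were picked by a small p in the same libraries, so a turn was unlikely beforehand and its absence is no separate support. Without C1 and C3 together 29 genes passed (14 higher, 15 lower), all of them among the 84. Without WT4 and CE3 together 103 passed (48 higher, 55 lower). With the presence of Y-linked transcripts as a further covariate 68 passed (28 higher, 40 lower), 60 of them among the 84. Blnk, Trib1, Mylpf, Esam, Emcn, Hoxb2, Socs3, Klhl4, Tnip3, Myof and 1700018L02Rik were among the genes that lost the call there. In every one of the 23 alternatives 22 genes passed, 11 higher and 11 lower.

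**Figure D1:**
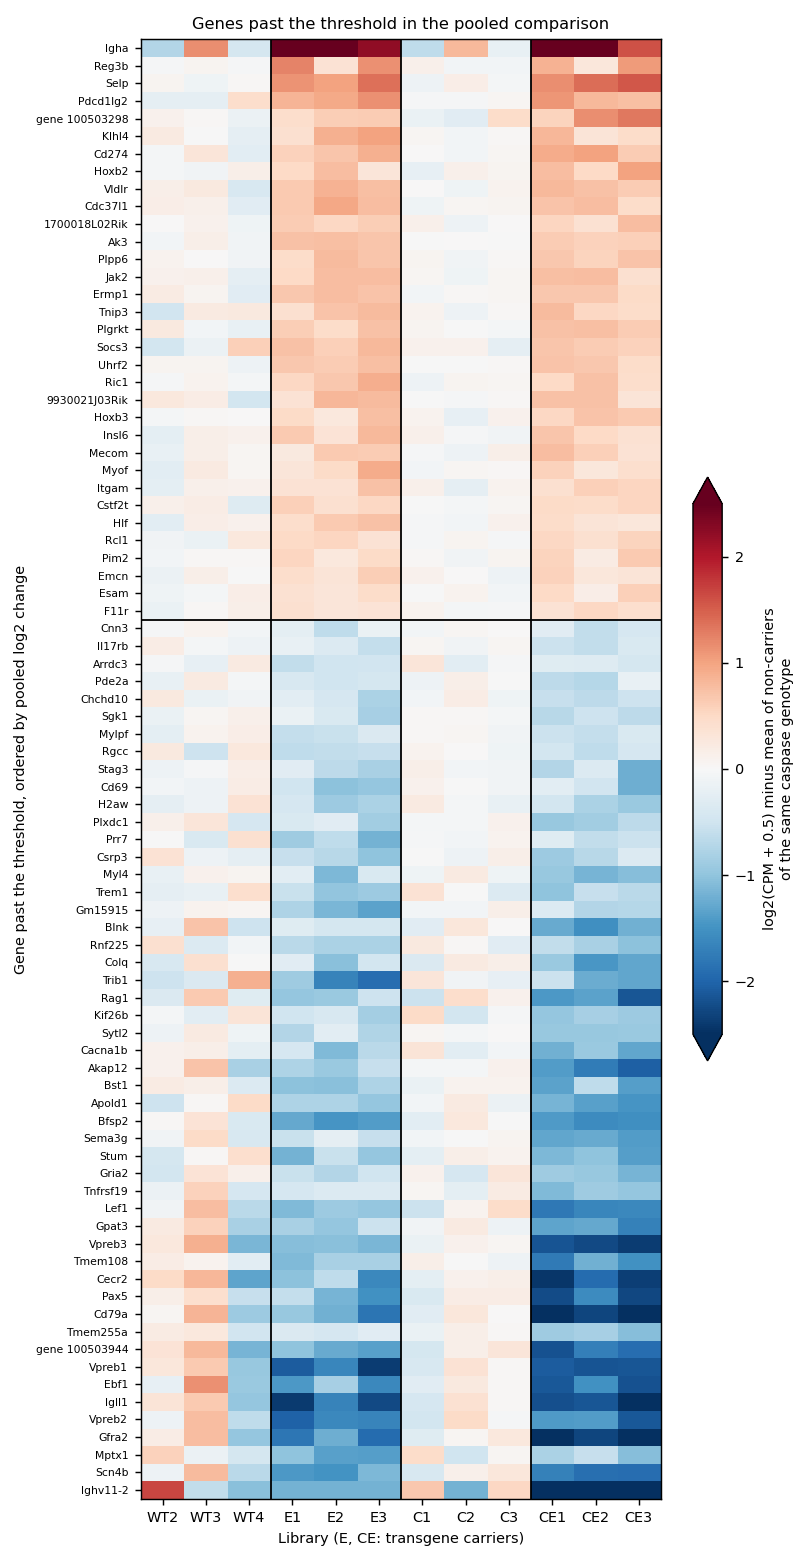
Each row is 1 of 83 of the 84 genes past the threshold, ordered by pooled log2 change, and each column is a library. Colour gives log2(CPM + 0.5) minus the mean of the 3 non-carrier libraries of the same caspase genotype, cut at the ends of the scale. The 33 higher genes are red in the E and CE columns and the 50 lower genes shown are blue there, and WT4 is bluer than WT3 across the B lineage rows near the bottom.

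Genes of the B lineage list made up 13 of the 51 lower transcripts. Of 28 genes listed for this lineage 27 were tested, 24 of them were below 0, 13 fell and none rose. The median log2 change of the list was -0.95, against 0.00 over all tested genes and beside a background of 0.358% of genes called lower. This list, which also holds Bfsp2 and Cecr2, was chosen with earlier results of these data known. Its count of calls is therefore a description and not an independent test. The upstream sequences of Igll1, Vpreb1 and Cd79a are shown because these genes of the precursor B cell receptor had large falls from appreciable levels. They are the 250 bases before the annotated start, 5′ to 3′ on the strand of the gene (RefSeq, GRCm38.p6), with the letters CAGGTG or their reverse complement in capitals. Each sequence shown holds a match, whereas the 250 bases before Ebf1 and Pax5, which also fell, hold none. The Igll1 stretch is chr16:16863986-16864235, minus strand, the Vpreb1 stretch chr16:16869256-16869505, minus strand, and the Cd79a stretch chr7:24897247-24897496, plus strand.
Igll1: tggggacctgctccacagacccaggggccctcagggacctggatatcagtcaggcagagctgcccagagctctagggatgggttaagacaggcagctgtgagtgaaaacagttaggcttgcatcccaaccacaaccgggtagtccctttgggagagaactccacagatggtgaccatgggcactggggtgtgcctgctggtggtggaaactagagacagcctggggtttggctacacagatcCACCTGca
Vpreb1: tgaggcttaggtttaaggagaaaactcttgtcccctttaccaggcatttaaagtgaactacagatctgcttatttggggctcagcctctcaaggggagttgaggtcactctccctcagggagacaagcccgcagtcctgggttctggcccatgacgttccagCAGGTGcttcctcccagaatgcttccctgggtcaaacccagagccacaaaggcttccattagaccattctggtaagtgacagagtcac
Cd79a: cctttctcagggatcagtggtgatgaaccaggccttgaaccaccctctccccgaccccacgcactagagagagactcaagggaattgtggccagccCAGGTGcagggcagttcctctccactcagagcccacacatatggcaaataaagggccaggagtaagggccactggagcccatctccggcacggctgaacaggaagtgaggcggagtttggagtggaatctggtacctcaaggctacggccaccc

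Surrogate light chain genes fell on both backgrounds. Igll1 (lambda 5, gene 16136, chromosome 16, 16860671 to 16863985) was at 22.9, 29.2 and 9.09 CPM in WT2 to WT4, and 3.08, 5.44 and 3.45 in E1 to E3. It was at 25.1, 44.0 and 34.6 CPM in C1 to C3, and 6.98, 7.27 and 4.99 in CE1 to CE3. No carrier library reached the lowest non-carrier, WT4. The fall was 5.24-fold (log2 -2.39, SE 0.239, adjusted p = 7.61e-05). Vpreb1 (gene 22362, chromosome 16, 16868401 to 16869255) ran from 7.34 through a median of 20.5 to 28.9 CPM in non-carriers, and from 2.42 through 4.51 to 4.93 in carriers. It fell 4.86-fold with the same adjusted p, and its 6 carrier libraries also lay below every non-carrier. Vpreb2 (log2 -2.42, adjusted p = 0.00144) is a near-identical copy of Vpreb1, and the counting could split their reads, so their separate values are uncertain. Vpreb3, which encodes another member of the family, fell by 1.98 on the log2 scale (adjusted p = 0.00214). Its level in WT4 (2.73 CPM) lay just below the lowest E library, E3 (2.74 CPM), so the groups overlapped on the wild-type background.

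Genes of B cell receptor signalling followed. Cd79a, which encodes a signalling chain of the receptor (gene 12518, chromosome 7, 24897497 to 24901858), was at 12.6, 22.2 and 6.19 CPM in WT2 to WT4, and 6.03, 4.99 and 3.06 in E1 to E3. It was at 22.6, 33.7 and 28.1 CPM in C1 to C3, and 4.24, 5.25 and 4.53 in CE1 to CE3. WT4 lay just above E1, and the caspase-deficient groups were far apart. Cd79a fell 4.23-fold (log2 -2.08, SE 0.276, adjusted p = 0.000982). Blnk, an adaptor below the receptor, passed narrowly (log2 -0.95, adjusted p = 0.048), and it passed in only 3 of the 12 fits that left out 1 library, those without E1, WT2 or WT4, with an adjusted p up to 0.144 without CE2. Cd79b, the partner chain of Cd79a, was at 39.1 to 61.5 CPM and did not pass (log2 -0.23, adjusted p = 0.39).

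Transcription factors of the lineage fell from low levels. Ebf1 (gene 13591, chromosome 11, 44618100 to 45008096) was at 1.45, 4.46 and 0.683 CPM in WT2 to WT4, and at 0.333, 0.763 and 0.238 in E1 to E3. It was at 3.91, 5.85 and 4.97 CPM in C1 to C3, and at 0.729, 1.36 and 0.685 in CE1 to CE3. The groups overlapped on the wild-type background through WT4 and E2, and not on the caspase background. The fall was 5.08-fold (log2 -2.35, SE 0.379, adjusted p = 0.00607). Pax5 (gene 18507, chromosome 4, 44524748 to 44710694) fell 4.21-fold (adjusted p = 0.00348), from 1.45 to 4.78 CPM in non-carriers to 0.456 to 1.41 in carriers, with no overlap. Lef1, which acts in early B and T progenitors, fell 3.59-fold (adjusted p = 0.00348), also without overlap. Pou2af1, a B cell coactivator, was lower by a log2 of -1.51 and did not pass (adjusted p = 0.17).

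Rag1, which encodes a subunit of the enzyme that rearranges antigen receptor genes (gene 19373, chromosome 2, 101638252 to 101649532), fell 2.61-fold (log2 -1.38, SE 0.241, adjusted p = 0.0109). It was at 4.68 to 9.97 CPM in WT against 2.87 to 4.13 in E, and 14.2 to 28.4 CPM in C against 4.37 to 7.95 in CE. Carriers lay below non-carriers within each background, though CE overlapped WT. Rag2 did not pass (log2 -0.20, adjusted p = 0.82), nor did Il7r, the receptor that supports lymphoid progenitors (log2 -0.37, adjusted p = 0.36), or Dntt, the template-independent polymerase of lymphoid progenitors (log2 -0.23, adjusted p = 0.64). Dntt was at 346 to 629 CPM, so the abundant early lymphoid transcripts did not share the size of the change seen for Igll1. Bfsp2 encodes a lens filament protein and has the smallest adjusted p of the list. It was at 9.39 to 21.2 CPM in non-carriers and 4.10 to 6.22 in carriers, a fall of 2.95-fold (log2 -1.56, SE 0.129, adjusted p = 1.49e-05), with no overlap. Cecr2, which encodes a chromatin remodelling factor, fell 4.18-fold (adjusted p = 0.00746), with WT4 within the range of group E. Leaving out any 1 library kept Rag1, Bfsp2, Cecr2, Igll1, Vpreb1, Vpreb2 and Vpreb3 past the threshold, while Rag1 and Cecr2 did not pass without C1 and C3.

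These libraries are bulk RNA, so fewer cells of a type and less RNA per cell cannot be told apart. The summed level of the 27 tested B lineage genes was 1230 to 1726 CPM in WT, 1353 to 2253 in E, 1533 to 1799 in C and 1025 to 1330 in CE. That sum is carried by Ighm, Dntt, Cd24a and Igkc, none of which passed. Ighm (330 to 1146 CPM) had a log2 change of 0.09 (adjusted p = 0.94), and Igkc (5.97 to 312 CPM) one of 0.62 (adjusted p = 0.83). Igkc was highest in E1 (252 CPM) and E2 (312 CPM). Ms4a1, the defining marker of mature B cells, was at 0.874, 0.254 and 0.238 CPM in E1 to E3, at 0 in all WT and CE libraries and at no more than 0.0349 in C. The part of mature or precursor B cells within the sort in the falls above was not tested. The list median ranged from -1.48 (limma voom) to -0.82 (without WT3) over the 23 alternatives, with 9 to 15 members called lower.

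Immunoglobulin genes were gathered after their values were seen. Of the 24 tested, 1 rose, 1 fell and 13 were above 0, beside 0.232% called higher and 0.358% called lower over all tested genes. Igha, the constant region of IgA (gene 238447, chromosome 12, 113256204 to 113260236), was at 0.362, 2.70 and 0.555 CPM in WT2 to WT4, and 494, 30.2 and 6.15 in E1 to E3. It was at 0.174, 1.34 and 0.420 CPM in C1 to C3, and 17.3, 18.4 and 2.67 in CE1 to CE3. Each carrier group lay above its own non-carriers, and E1 stood far above all others. The log2 change was 6.17 (SE 1.11, adjusted p = 0.0143), and 4.06 without E1 (adjusted p = 0.00478). Igha did not pass with limma voom, without C1 and C3, or without WT2 (adjusted p = 0.0508). Ighv11-2 was at 0.0427 to 3.08 CPM in WT and 1.01 to 4.99 in C, at 0 in all E libraries, and at no more than 0.0347 in CE. It fell (adjusted p = 0.00321), and no fold is given because carriers held almost no counts.

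The genes called in either direction also include transcripts outside the B lineage list. Gfra2, a receptor for neurturin (gene 14586, chromosome 14, 70890107 to 70979840), was at 5.44, 8.45 and 2.18 CPM in WT2 to WT4, and at 0.998, 1.75 and 0.873 in E1 to E3. It was at 10.1, 13.2 and 15.3 CPM in C1 to C3, and 1.42, 2.18 and 1.63 in CE1 to CE3. WT4 and CE2 met at the boundary, and all other non-carriers were well above. The fall was 5.81-fold (log2 -2.54, SE 0.285, adjusted p = 0.000292). The following were picked after their values were seen. Scn4b, a sodium channel subunit, fell 7.70-fold with no overlap (0.555 to 3.10 CPM to 0.0954 to 0.417, adjusted p = 0.000525). Mptx1, a pentraxin, was at 1.89 CPM or less and fell by 2.61 on the log2 scale (adjusted p = 0.0177), with C2 inside the carrier range, and passed in 8 of the 12 edgeR fits without 1 library, but not without C1, CE1, E2 or E3 (adjusted p up to 0.0709, without E3). Trib1, a pseudokinase that steers protein degradation, fell 2.46-fold (adjusted p = 0.0208), from 26.0 to 69.8 CPM in non-carriers to 9.61 to 35.0 in carriers, and failed without C1, CE2, CE3, E2 or E3 (adjusted p up to 0.0709). Cd69, an early activation antigen, fell 1.64-fold (adjusted p = 0.0194), from 132 to 184 CPM to 70.8 to 142, with CE1 inside the non-carrier range, and failed without C1, E2 or E3 (adjusted p up to 0.0709). Trem1, an activating receptor of myeloid cells, fell 1.83-fold with no overlap (adjusted p = 0.0177), and passed in 8 of 12 fits without 1 library (adjusted p up to 0.0649 without E3). The sarcomere genes Myl4, Csrp3 and Mylpf, which encode myosin light chains and a muscle LIM protein, fell 1.82-, 1.75- and 1.49-fold from levels under 15 CPM, and passed in 10, 5 and 1 of those 12 fits, with adjusted p up to 0.0532 without CE2, 0.0863 without C3 and 0.124 without CE2. Of the 51 lower genes, 15 had an average log2 CPM under 1, so the counts behind them were few.

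**Figure D2:**
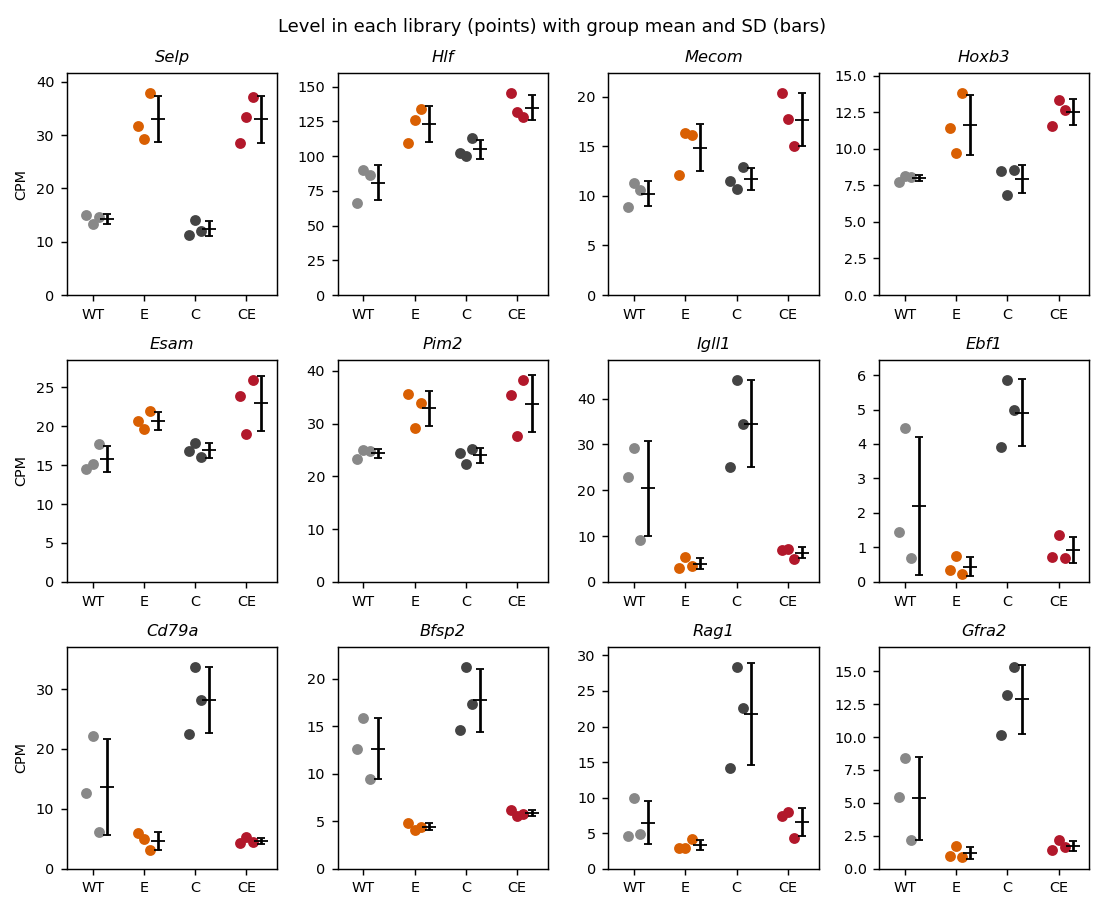
Points give CPM in each library by group and bars the group mean and SD (n = 3) for 12 genes past the threshold, on linear axes from 0. Selp, Hoxb3, Esam and Pim2 are higher in every E and CE library than in any WT or C library, and Igll1, Cd79a and Bfsp2 are lower in every one, while WT4 is the lowest WT library for Igll1, Ebf1, Cd79a, Bfsp2 and Gfra2.

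Selp encodes P-selectin, an adhesion receptor of platelets and endothelium, and its upstream sequence is shown because Selp was the gene with the smallest adjusted p. It lies at chr1:164115014-164115263, plus strand, 250 bases before the start (RefSeq, GRCm38.p6), with the reverse complement of CAGGTG in capitals.
Selp: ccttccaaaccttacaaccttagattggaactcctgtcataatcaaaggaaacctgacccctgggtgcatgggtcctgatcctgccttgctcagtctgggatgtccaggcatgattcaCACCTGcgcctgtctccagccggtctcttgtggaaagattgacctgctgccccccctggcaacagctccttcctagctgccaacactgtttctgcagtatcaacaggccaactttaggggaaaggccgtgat

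Selp (gene 20344, chromosome 1, 164115264 to 164150026) had the smallest adjusted p of all 14227 genes. It was at 15.0, 13.3 and 14.6 CPM in WT2 to WT4, and 31.8, 29.3 and 37.8 in E1 to E3. It was at 11.3, 14.0 and 11.9 CPM in C1 to C3, and 28.4, 33.4 and 37.2 in CE1 to CE3. The lowest carrier, CE1, lay far above the highest non-carrier, WT2. The rise was 2.48-fold (log2 1.31, SE 0.095, 95% interval 1.11 to 1.51, adjusted p = 4.42e-06), and Selp passed in all 23 alternatives. Other platelet and megakaryocyte genes did not share it. Of 29 tested members Selp alone passed, 16 were above 0 and the median log2 change was 0.015, a median that was below 0 in 5 of the 23 alternatives. Gata1, a master factor of that lineage, was at -0.34 (adjusted p = 0.16) and Pf4, a platelet chemokine, at -0.24 (adjusted p = 0.47). Of 22 adhesion and homing genes, a list that also holds Selp, 14 were above 0, Selp alone passed, and the median was 0.10 (0.05 without WT4). Beside both lists, 51.4% of all tested genes were above 0 and 0.232% were called higher.

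A run of neighbours on chromosome 19 made up 16 of the 33 higher genes. The stretch was set from 1 Mb before Vldlr to 1 Mb after Uhrf2, with tested genes lying between 26605073 and 31086592 (mm10). Of its 26 tested genes 16 rose, none fell and 24 were above 0, with a median log2 change of 0.65. All 16 had every carrier library above every non-carrier library. On the rest of chromosome 19, 459 genes were tested, 1 rose (Myof), 1 fell (Blnk), and the median was -0.01. The rises were alike in size: in the inner block from Plpp6 to Uhrf2 (28963920 to 30093726), 14 of 17 tested genes passed, with folds of 1.39 to 2.18 and a median of 1.59. Vldlr, Plpp6 and Uhrf2, which set the bounds, are themselves called genes, and the bounds were chosen with earlier results known. The contrast with the rest of the chromosome is therefore a description.

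Jak2, the tyrosine kinase below the thrombopoietin and erythropoietin receptors (gene 16452, 29251803 to 29313095), was at 60.1, 61.6 and 47.7 CPM in WT2 to WT4, and 79.2, 96.2 and 96.3 in E1 to E3. It was at 60.0, 54.1 and 59.9 CPM in C1 to C3, and 97.8, 99.1 and 76.8 in CE1 to CE3. Jak2 rose 1.59-fold (log2 0.67, SE 0.085, adjusted p = 0.000798). Ak3, a mitochondrial adenylate kinase (28995053 to 29048080), was the most uniform member of the block, at 61.9 to 73.0 CPM in non-carriers and 103.5 to 112 in carriers (log2 0.67, SE 0.058, adjusted p = 1.91e-05). Uhrf2, a reader of modified histones and DNA at the far end of the block (30030430 to 30093726), rose 1.57-fold, from a median of 98.2 CPM to one of 154, with the lowest carrier at 135 (adjusted p = 5.52e-05). These 3 genes lay far above zero counts and their carrier and non-carrier ranges were well separated.

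The stretch also holds both ligands of the PD-1 checkpoint receptor. Cd274, which encodes PD-L1 (gene 60533, 29362107 to 29388095), was at 16.8 to 24.9 CPM in non-carriers and 30.1 to 41.1 in carriers, a rise of 1.74-fold (log2 0.80, SE 0.100, adjusted p = 0.000698). Pdcd1lg2, which encodes PD-L2, rose 2.18-fold from a low level (0.942 to 2.20 CPM to 2.54 to 5.07, adjusted p = 0.00321). The other members were Vldlr, a lipoprotein receptor (log2 0.74), Plpp6 (0.67), Cdc37l1 (0.73), 1700018L02Rik (0.70), Rcl1 (0.48), Insl6 (0.60), Plgrkt, a plasminogen receptor (0.65), Ric1 (0.64), Ermp1 (0.66), 9930021J03Rik (0.63) and Cstf2t (0.49). Of these, 1700018L02Rik, Insl6 and 9930021J03Rik lost the call in some fits without 1 library, with adjusted p up to 0.0864 without C2, 0.0725 without C3 and 0.0696 without E3.

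Not every gene of the stretch moved. Pum3 and Rfx3, between Vldlr and Plpp6, were at log2 changes of -0.03 and 0.01 (adjusted p = 0.947 and 0.995), and Smarca2, before Vldlr, at 0.17 (adjusted p = 0.61). Ranbp6 (0.65, adjusted p = 0.0595) and A930007I19Rik (0.97, adjusted p = 0.0894), inside the block, did not pass, and neither did the third uncalled gene there, Gm9895 (0.35, adjusted p = 0.71), which was below its neighbours. The whole of Plpp6 lies within 4430402I18Rik, Cdc37l1 overlaps Ak3, Ak3 overlaps 1700018L02Rik, and Plgrkt overlaps Cd274 in the annotation, and without known strandedness reads in the shared bases cannot be told apart.

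**Figure D3:**
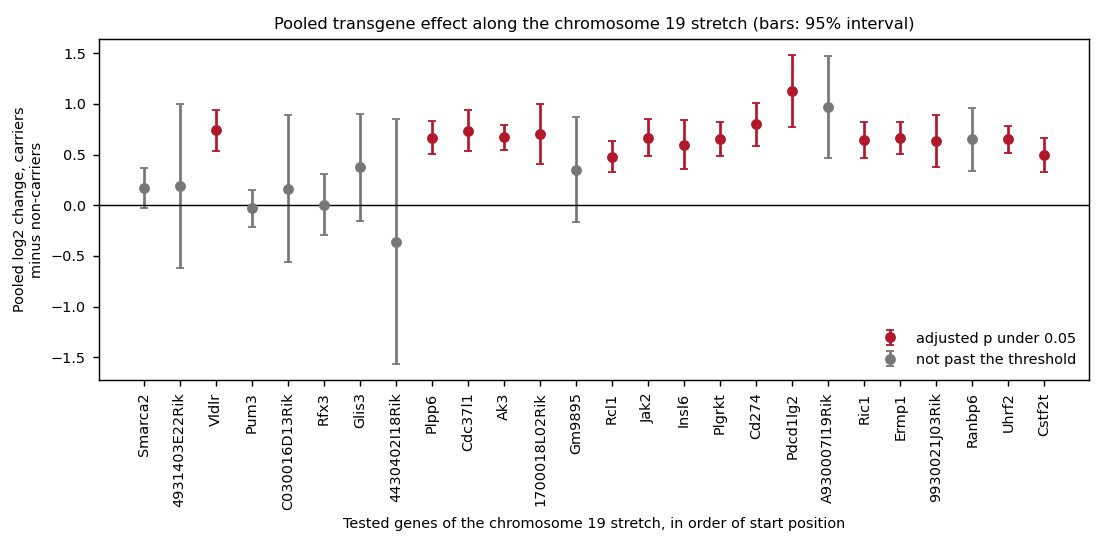
Pooled log2 change (carriers minus non-carriers) with its 95% interval for the 26 tested genes of the chromosome 19 stretch, in order of start position. The 16 genes in red passed the threshold, and Plpp6 to Uhrf2 have a median of 0.66 with Gm9895 the lowest of them, whereas Pum3 and Rfx3 lie at 0.

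Transcripts of HSC identity were mildly and broadly higher. Of 33 tested genes 32 were above 0, 3 rose and none fell, with a median log2 change of 0.23, against 51.4% above 0 and 0.232% called higher over all tested genes. The list median stayed between 0.185 and 0.246 over the 23 alternatives, with 0 to 10 members called higher. Members of a list vary together between libraries, so the count of signs, here and in the lists below, is a description. The mean log2 level of the list, relative to WT, was 0.107 in E1 and 0.117 in C3, so carriers and non-carriers overlapped across backgrounds. Hlf, a transcription factor that marks HSC (gene 217082, chromosome 11, 90336535 to 90390917), was at 66.3, 90.3 and 86.2 CPM in WT2 to WT4, and 109, 126 and 134 in E1 to E3. It was at 102, 99.7 and 113 CPM in C1 to C3, and 145, 131 and 128 in CE1 to CE3. Each carrier group lay above its own non-carriers, and E1 lay below C3. The rise was 1.40-fold (log2 0.48, SE 0.085, adjusted p = 0.0122), held in all 12 fits without 1 library, and did not pass without the caspase covariate.

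Mecom, which encodes EVI1 (gene 14013, chromosome 3, 29951296 to 30509759), was at 8.84, 11.3 and 10.6 CPM in WT2 to WT4, and 12.2, 16.3 and 16.2 in E1 to E3. It was at 11.5, 10.7 and 12.9 CPM in C1 to C3, and 20.4, 17.7 and 15.0 in CE1 to CE3. Again the carriers were higher within each background, with C3 above E1. Mecom rose 1.49-fold (log2 0.57, SE 0.107, adjusted p = 0.0187). It did not pass without C1, C2, CE1, CE2 or E3, at an adjusted p up to 0.072 without C2. Esam, a junctional adhesion molecule on HSC (gene 69524, chromosome 9, 37528089 to 37538319), ran from 14.6 to 17.9 CPM in non-carriers (median 16.4) and up to 25.9 in carriers (median 21.3) without overlap, a 1.33-fold rise (adjusted p = 0.0411). It passed in only 2 of the 12 fits without 1 library, those without CE2 or WT4 (adjusted p up to 0.138 without E3). Ifitm1 (log2 0.49, adjusted p = 0.0636), Tek, the angiopoietin receptor (0.43, adjusted p = 0.0894), Mycn (0.30, adjusted p = 0.0942), Meis1 (0.25, adjusted p = 0.15) and Procr (0.33, adjusted p = 0.39) did not pass.

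HOX genes, homeobox factors tied to stem cell self-renewal, were gathered after their values were seen. Of 13 tested, 12 were above 0, 2 rose, and the median log2 change was 0.24 (0.177 to 0.304 over the 23 alternatives), beside 51.4% above 0 and 0.232% called higher over all tested genes. Hoxb3 (gene 15410, chromosome 11, 96307101 to 96347930) was at 7.76, 8.14 and 8.07 CPM in WT2 to WT4, and 11.4, 9.73 and 13.8 in E1 to E3. It was at 8.48, 6.80 and 8.53 CPM in C1 to C3, and 11.6, 13.3 and 12.7 in CE1 to CE3. No carrier overlapped a non-carrier, and Hoxb3 rose 1.52-fold (log2 0.60, SE 0.103, adjusted p = 0.00986) in all fits without 1 library. Its neighbour Hoxb2 rose 1.72-fold (adjusted p = 0.0309) from 1.29 to 2.86 CPM, and passed in 4 of the 12 fits, those without CE2, E1, E3 or WT4 (adjusted p up to 0.0953 without C3). Hoxb4 did not pass (log2 0.19, adjusted p = 0.57).

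In the JAK-STAT list 17 of 20 tested genes were above 0, 3 rose, none fell and the median was 0.12, beside 51.4% above 0 and 0.232% called higher over all tested genes. Jak2, described above with its neighbours, was one of the 3. Pim2, a serine/threonine kinase induced by cytokine signalling (gene 18715, chromosome X, 7878306 to 7883432), was at 22.4 to 25.2 CPM in non-carriers (median 24.6) and 27.7 to 38.2 in carriers (median 34.7) without overlap. It rose 1.38-fold (log2 0.46, SE 0.084, adjusted p = 0.0146), but not past the threshold without C2, CE1 or E3 (adjusted p up to 0.064). Socs3, a feedback inhibitor of JAK kinases (gene 12702, chromosome 11, 117966079 to 117970336), rose 1.57-fold (adjusted p = 0.041), with 10.7, 13.4 and 22.7 CPM in WT2 to WT4, 25, 22.6 and 26.3 in E1 to E3, 24.9, 24.9 and 19.7 in C1 to C3, and 37.7, 36.0 and 34.7 in CE1 to CE3. WT4 met the lowest E library, and Socs3 passed only without WT4 among the 12 fits that left out 1 library (adjusted p up to 0.13 without E3). Stat3 did not pass (log2 0.25, adjusted p = 0.060).

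The remaining higher genes lie outside these groups and were picked after their values were seen, except Klhl4 and Emcn. Itgam, the integrin chain CD11b, rose 1.42-fold without overlap (38.2 to 50.2 CPM in carriers, from 25.2 in WT2 up to C1 below them, adjusted p = 0.0167), and failed without C2, CE2 or E3 (adjusted p up to 0.0609). Emcn, a sialomucin of endothelium and HSC, rose 1.36-fold (adjusted p = 0.0442), but passed in only 2 of 12 fits without 1 library, those without E2 or WT4, and its list of stroma and endothelium had no other call among 8 tested genes, with Cxcl12 at -1.56 (adjusted p = 0.0808). F11r, a junctional adhesion molecule, rose 1.32-fold and passed only without E2, WT2 or WT4 among the 12 fits (adjusted p up to 0.108). Klhl4 rose 1.77-fold and passed only without CE2, E1 or WT2 (up to 0.138), Tnip3, which binds an inhibitor of NF-kB, rose 1.58-fold and passed only without E1, WT2 or WT4 (up to 0.147), and Myof passed in 1 of the 12 (up to 0.135). Reg3b was nearly absent from non-carriers, at 0 to 0.0698 CPM, and at 0.137 to 0.707 in carriers (adjusted p = 0.00808), so it was seen on few counts. The last of the higher genes, listed as gene 100503298 without a symbol, passed in 5 of the 12 fits (adjusted p up to 0.11 without CE2).

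Groups of genes known as MYC targets showed no rise. All 78 cytosolic ribosomal protein genes tested were below 0, none passed, and the median log2 change was -0.08. Of 46 genes of ribosome biogenesis and the nucleolus 44 were below 0, with a median of -0.13, and the 1 call was Rcl1 in the chromosome 19 stretch, which was higher. Nuclear genes of oxidative phosphorylation were below 0 in 49 of 50 and aminoacyl-tRNA synthetases in 19 of 20, with medians of -0.12 and -0.09 and no call. S phase genes (26 of 28 below 0, median -0.09) and G2/M genes (24 of 25, median -0.06) had no call either. At an unadjusted p under 0.05 in edgeR there were 10 of the 46 ribosome biogenesis genes, Rcl1 included, against 1340 of 14227 genes tested. There were 0 ribosomal protein, 3 oxidative phosphorylation, 1 synthetase, 1 S phase and 2 G2/M genes, and over the 23 alternatives, DESeq2 and limma voom included, calls in the last 5 lists stayed at 0 except for at most 1 lower G2/M gene. The negative sign of these 6 medians held in all 23 alternatives, with the ribosomal protein median between -0.14 and -0.01 and the G2/M median between -0.14 and -0.02. Genes of 1 such list vary together between libraries, so the count of signs is a description. For the ribosomal proteins the median was -0.17 in E against WT and 0.015 in CE against C.

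The erythroid, T and NK, basophil, neutrophil and macrophage lists had no call in the main edgeR fit and differed in sign. All 22 tested erythroid genes were below 0, with a median log2 change of -0.68 that stayed between -0.895 and -0.493 over the alternatives. The main edgeR fit called none of them, with 13 at an unadjusted p under 0.05. Tspo2 (log2 -0.99, adjusted p = 0.087), Car1, a carbonic anhydrase (-1.01, adjusted p = 0.18), and Klf1, the erythroid transcription factor (-0.72, adjusted p = 0.19), are examples. Tspo2 and Car1 each passed in 2 of the 12 edgeR fits that left out a library. The summed erythroid level was 656.8 to 1174 CPM in WT, 570.7 to 917.1 in E, 714.8 to 790.4 in C and 494.8 to 659.6 in CE, so it overlapped on the wild-type background and not on the caspase background. Over the 23 alternatives 0 to 11 erythroid genes were called lower, the 11 with no filter on low counts. Of 18 basophil, eosinophil and mast cell genes 14 were below 0 (median -0.31), with Hdc, the histamine-forming enzyme, at -0.42 (adjusted p = 0.0808). Of 21 T and NK genes 16 were below 0 (median -0.29), with Tcf7 at -0.52 (adjusted p = 0.0997). Neither list had a call in the main edgeR fit, with 8 genes of each at an unadjusted p under 0.05, and alternatives called up to 5 and 2 of them lower. Among the edgeR fits that left out a library, Hdc passed without CE3 (adjusted p = 0.00931) and Tcf7 without WT2 (adjusted p = 0.0201). The basophil, eosinophil and mast cell median was -0.50 without E1. The T and NK median was -0.03 without WT3, -0.14 without E2, -0.16 without CE2 and -0.46 without WT2. Marrow macrophage genes were above 0 in 12 of 19 with no call (median 0.06, between 0.01 and 0.17 over the alternatives). Neutrophil and monocyte granule genes were balanced (8 of 15 above 0, median 0.005, with the other sign in 13 of the 23 alternatives).

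Of the stress and activation genes the main edgeR fit called none. Of 27 immediate early and heat shock genes 23 were below 0 (median -0.195), 10 had an unadjusted p under 0.05, and alternatives called up to 7 lower. That median was -0.04 without WT4 and 0.00 without WT4 and CE3, and it was -0.33 in E against WT and -0.05 in CE against C. Atf3, a stress-induced factor, was at 19.6, 13.5 and 125 CPM in WT2 to WT4, 10.2, 3.66 and 4.84 in E1 to E3, 101, 69.9 and 49.5 in C1 to C3, and 40.5, 20.0 and 14.6 in CE1 to CE3. Its carriers lay below its non-carriers within each background, and the spread within groups was wide (log2 -2.26, SE 0.508, adjusted p = 0.0598). Atf3 passed in 3 of the 12 edgeR fits that left out a library, with an adjusted p down to 0.0116 without WT4. Tnfaip3, an inhibitor of NF-kB signalling, was at -1.004 (adjusted p = 0.0669). The p53 target list had a median of -0.08, with Plk2 at -1.14 (adjusted p = 0.060), and the quiescence list one of 0.00. Type I interferon-stimulated genes (median -0.05, 11 of 30 above 0) had no call, and of 30 interferon-gamma and antigen presentation genes Cd274 alone passed. Among 23 inflammasome and pyroptosis genes none passed (median 0.04), nor did any of 15 BCL2 family members (median -0.07). The medians of the p53, type I interferon, inflammasome and BCL2 lists each took the other sign or 0 in 1 of the 23 alternatives, and they held 5, 3, 1 and 3 genes at an unadjusted p under 0.05.

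**Figure D4:**
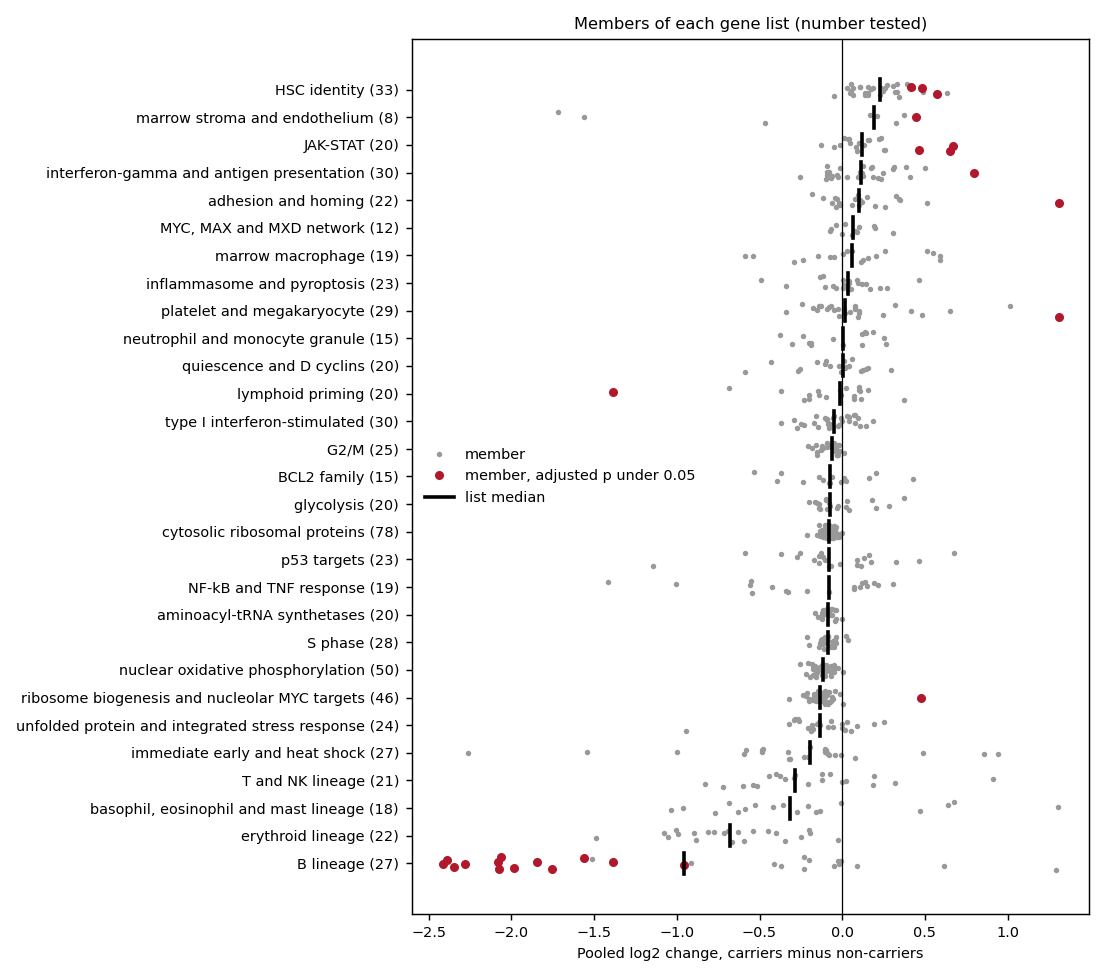
Each point is a tested member of a gene list, placed by its pooled log2 change, with members past the threshold in red, the list median as a black bar and the number tested in brackets. B lineage members reach down to -2.42, the erythroid members all lie below 0 without a red point, and the HSC identity members lie slightly to the right of 0 with 3 in red.

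Lastly, the shared effect was set beside the change in each background. E against WT called 12 genes (0.0843%) and CE against C called 29 (0.204%), in a fit of the same 14227 genes. Both share their libraries with the pooled comparison, so their values are given only side by side. Leaving out 1 library moved the first count to between 5 (without E3) and 21 (without WT4), and the second to between 2 (without CE1) and 42 (without WT4), and without any 1 of the C or CE libraries it was 13 or fewer. The median standard error was 0.142 and 0.141 in the single backgrounds and 0.099 in the pooled fit. Selp had a log2 change of 1.21 in E against WT and 1.41 in CE against C, Jak2 0.68 and 0.65, Igll1 -2.34 and -2.43, and Bfsp2 -1.52 and -1.60. Hlf had 0.60 and 0.36, Cd79a -1.55 and -2.59, and Blnk -0.52 and -1.39.

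The difference of the transgene effect between backgrounds was tested on its own, and the main edgeR fit called no gene (0 of 14227, 0%). The smallest adjusted p was 0.9998, and 291 genes had an unadjusted p under 0.05, which is 2.045% of those tested. DESeq2 and limma voom also called none. The median standard error of a difference was 0.2, so differences between backgrounds were measured less precisely than the pooled effect. Blnk (difference -0.88, unadjusted p = 0.0252) and Cd79a (-1.04, unadjusted p = 0.0488) had the larger fall in the caspase-deficient background, and each had an adjusted p of 0.9998. The 3 smallest unadjusted p-values belonged to Edar (difference -3.36), Stab2 (-2.05) and Cacna1c (-3.67), none of them among the 84, and each had an adjusted p of 0.9998 in edgeR. Edar and Cacna1c were highest in C1 and C3 among the C libraries, at or under 1.43 CPM.

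Short DNA motifs were counted in the promoter windows of the called genes, as a description. A window of 300 bases, 250 before to 50 after the annotated start, was found for 10874 of the 14227 tested genes, 26 of the 33 higher and 39 of the 51 lower. The letters CACGTG, the E-box that MYC and MAX bind, were in 10.1% of all windows, in 0 of the 26 higher and in 2 of the 39 lower (5.13%). CAGGTG, an E-box bound by E proteins, was in 17.7% of all windows, in 7 of the 26 higher (26.9%) and in 13 of the 39 lower (33.3%). Of the 11 B lineage genes that fell and had a window, 7 held it (63.6%): Bfsp2, Blnk, Cd79a, Igll1, Rag1, Vpreb1 and Vpreb2. The windows of Ebf1, Lef1, Pax5 and Vpreb3, which also fell, did not hold it. CAGGTG starts 8 bases before the start of Igll1, 88 before that of Vpreb1, 154 before that of Cd79a and 132 before that of Selp, as capitalised in the sequences above. TCCCNNGGG, the palindrome of EBF1, was in 7.6% of all windows, in 0 of the 26 higher, in 4 of the 39 lower (10.3%) and in 0 of the 11 B lineage windows. Both strands were searched, CACGTG and CAGGTG differ in their letters and were counted apart, and Vpreb1 and Vpreb2 share sequence. A match is not a binding site, and no match says only that these letters are not in the window.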

How the data were processed

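The authors deposited raw counts per gene for all 12 libraries, whole numbers by NCBI Gene number with no normalization. Per the submitters' processing notes, reads were aligned with STAR 2.5.3 and the build was mm10. How reads were counted, on which annotation and strand and after which filters, is not given in the sources used here. RefSeq symbols and positions matched 25275 of 27179 numbers, and the other 1904, with 0.546 to 2.45% of the counts of a library, were tested by number.

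The fit used edgeR 4.0.16 (R 4.3.3), with TMM factors, the filterByExpr filter given the design, caspase genotype plus transgene, and two-sided quasi-likelihood F tests with Benjamini-Hochberg adjustment over 14227 genes. The threshold was an adjusted p of 0.05, and the biological coefficient of variation was 0.135. Log2 changes are edgeR's, with its prior count of 0.125. The difference between backgrounds came from group means over the same genes. Simulated data with known changes were recovered at 73.1% of 67 genes changed 1.5-fold, 97% of 67 changed 2-fold and 100% of 66 changed 4-fold in this comparison over 14227 genes, and 5.26% of 190 calls were false. Only genes above a floor of mean CPM were changed, and the simulated libraries had no caspase effect and no library that stood apart. The rates therefore do not cover the called genes with the lowest counts or the dependence on single libraries. No 2 libraries of a group were identical.

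Libraries with the same replicate number did not deviate together, so the numbers were not taken to pair them. Alternatives replaced the normalization, filter and tool (DESeq2 1.42.0, limma 3.58.1), the model, or left out libraries. Named genes are Myc, Casp1, Casp4 and Selp, the 12 largest changes each way among called genes whose average log2 CPM was 1 or more, the chromosome 19 stretch, up to 4 called members of each list by smallest p (or 2 uncalled as values), and the 3 smallest p of the difference. Others are marked in the text or given as uncalled members of a list. The comparison, lists and members were chosen with earlier results of these data known. The other listed genes and the sex-specific list were used only for the checks described. The values of 1 called gene, which stays in the fits and counts, are not reported here.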

Additional observations from a re-analysis of the deposited data

Results flagged for a closer look

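Within each arm of 6 libraries, the named genes were screened for a library whose gap to the next exceeded the 95% critical value of Dixon's test on log2(CPM + 0.5). Of 168 sets examined 9 were picked out, and chance picks out about 1 in 20. Among non-carriers WT4 was the lowest library for 9930021J03Rik (16.6 CPM), Cecr2 (1.24 CPM), Uhrf2 (86.0 CPM) and Vpreb3 (2.73 CPM), and the highest for Tnf (19.9 CPM). WT2 was the highest non-carrier for Cars (61.7 CPM), Cycs (104 CPM) and Tspo2 (15.8 CPM). Among carriers E3 was the lowest for Yars (69.0 CPM). Without WT4 the called genes among these kept their direction.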

How the results depend on the processing

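Of 84 calls in the pooled comparison, 43 held in all 12 fits that left out 1 library, each with its own filter. Counts of calls were 320 with no filter, 229 with DESeq2, 267 with limma voom, 46 with no caspase covariate and 29 without C1 and C3, and 50 to 132 over the fits without 1 library. The other alternatives, the replicate block apart, gave 61 to 103. The 84 genes were among those called with no filter and DESeq2, and 83 of them with limma voom. With the replicate block 164 genes were called in the pooled comparison, 49 in CE against C and 27 in E against WT. Libraries of the same number correlated in their deviations at -0.154 to 0.144 over 5 pairs, so the block adds a number and no known pairing. The difference between backgrounds had 0 calls in every alternative except no filter, with 39. The alternatives for E against WT and CE against C were chosen after seeing the data. E against WT called 217 with no filter and 48 with DESeq2, and 5 to 21 without 1 library. CE against C called 203 with no filter, 65 with DESeq2 and 102 with limma voom, and 2 to 42 without 1 library. The share of higher genes among calls was 39.3% in the main comparison and 31 to 48.3% in the alternatives. Among named genes, 120 of 1930 comparisons with an alternative lost the call and 71 gained it, and none of the called genes turned. Low counts limit the 16 called genes with an average log2 CPM under 1. The cause of these shifts was not tested.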
